A study of Mus musculus with 21 samples.

Results

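The comparison set bone-marrow-derived macrophages given the fusion protein FcMR for 12 h against cells of the same kind given an isotype control for 4 h. Its members are the 6 libraries, of 21 in the series, whose titles name these groups, 3 for each. The question was whether cells at 12 h of FcMR resembled a prolonged early control response or stood in a different state. All groups came from marrow of C57BL/6J mice, grown for 7 days with the supernatant of a cell line that secretes GM-CSF, and the series describes the cells as deficient in the mannose receptor. FcMR joins the Fc part of human IgG1 to the extracellular region of that receptor, while the isotype control is not described further. Both the agent and the time differ between the 2 groups, so that within this comparison their parts cannot be told apart. The 3 isotype 12 h libraries, which share the agent with one group and the time with the other, were therefore set beside them. Rose and fell, said of FcMR 12 h, mean higher and lower than in isotype 4 h and not a course under FcMR. No label says that libraries of a group came from separate mice or cultures. The p-values therefore measure a spread between libraries that may be technical. That spread was estimated within the groups of all 21 libraries and not only within the groups compared.

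Macrophages answer danger signals in waves. Transcription factors of the NF-kB and AP-1 families switch on cytokine and chemokine genes early, feedback inhibitors of the same pathway then close many of them again, and a later wave brings interferon-stimulated genes and long-lived effectors such as acute-phase proteins and complement factors. The mannose receptor, encoded by Mrc1, is a C-type lectin of the macrophage surface that binds sugars on glycoproteins and can be shed as a soluble protein. GM-CSF cultures hold macrophages, dendritic-like cells and leftover granulocytes.

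Library totals were 5532225 to 9171892 counts in isotype 4 h and 11901472 to 21699811 in FcMR 12 h. Mrc1, the gene of the receptor that the cells lack by description, was at 0.575, 0 and 0 counts per 1000000 (CPM, after TMM scaling of library sizes) in isotype 4 h replicates 1 to 3 and 0.367, 0.349 and 0.0486 CPM in FcMR 12 h. It was at 0 to 0.414 CPM in untreated, isotype 12 h and FcMR 4 h cells and was not tested. Ptprc, the leukocyte marker CD45, was present throughout, at 1030, 1211 and 817 CPM in isotype 4 h and 883, 668 and 656 in FcMR 12 h, which overlap. It was called lower (-0.47, adjusted p = 0.0152), a call lost without any 1 of FcMR 12 h replicates 2 and 3 or isotype 4 h replicates 1 and 2. Defining macrophage markers were abundant, with a summed level of 27618 to 31097 CPM over 8 genes in isotype 4 h and 20538 to 23710 in FcMR 12 h. The marker lists of B cells, T and NK cells, stromal and erythroid cells summed to at most 6.75, 1.47, 3.23 and 1.08 CPM in these 6 libraries. Neutrophil markers (10 genes) summed to 1019 to 1362 CPM in isotype 4 h against 317 to 539.9 in FcMR 12 h and 297 to 385 in isotype 12 h, and eosinophil markers (3 genes) to 329 to 412, 209 to 314 and 177 to 260. In bulk RNA, fewer cells of a type and less RNA per cell cannot be told apart.

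The library numbers that open the sample titles cross the 2 groups once. Isotype 4 h carries 3353, 3354 and 3356, and FcMR 12 h carries 3355, 3357 and 3358. GC tilt, the mean log2 deviation of the most GC-rich 10% of transcripts minus that of the most GC-poor 10%, was -0.825, -1.58 and -0.722 in libraries 3353, 3354 and 3355 and 0.641, 0.722 and 0.80 in 3356, 3357 and 3358. Among these 6 libraries the tilt thus followed the number and not the group. The isotype 12 h libraries had tilts of 0.588, 0.81 and 0.821. Time in the control was therefore also mixed with tilt, since isotype 4 h replicates 1 and 2 were far below these values. Single genes went both ways in the 2 libraries that cross. Tnf, named for its role and not for its fold, stood with the labelled groups at 482 CPM in FcMR 12 h replicate 1 and 1174 in isotype 4 h replicate 3. Junb, an AP-1 factor, stood with the numbers, at 16.9, 6.67 and 211 CPM in isotype 4 h and 13.6, 156 and 177 in FcMR 12 h, as did the NF-kB inhibitor Nfkbib, at 38.8, 13.5 and 103 and 43.9, 109.9 and 118. Of 7157 genes called from the other 4 libraries, 48.0% had the same direction between these 2 libraries, and of 5785 called after a correction for GC content 71.1% did. Results are therefore also given without both libraries, with a GC offset, and with a term for the 3 lower against the 3 higher numbers. Leaving out both libraries does not remove the tilt. It leaves -0.825 and -1.58 in isotype 4 h against 0.722 and 0.80 in FcMR 12 h. Group, tilt and number then coincide, so without the offset that setting cannot tell them apart.

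**Figure D1:**
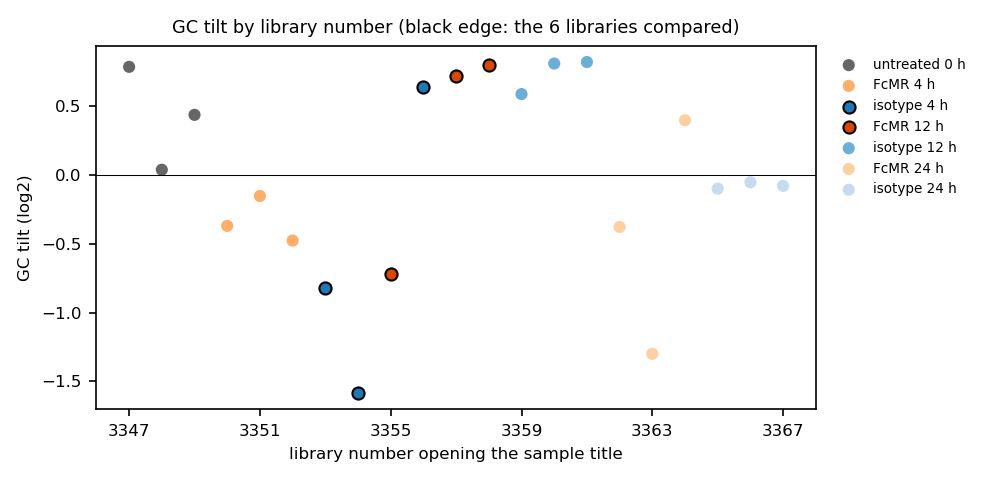
GC tilt (log2, vertical axis) of each of the 21 libraries against the library number in its title; colours mark the groups and black edges the 6 libraries compared. Isotype 4 h replicate 3 (number 3356) has a tilt of 0.641, next to FcMR 12 h replicates 2 and 3, and FcMR 12 h replicate 1 (3355) has -0.722, next to isotype 4 h replicates 1 and 2.

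Across all genes the mean distance of the FcMR 12 h libraries was smallest to each other and next smallest to isotype 12 h, but replicate 1 departed from this order. The root mean square difference of log2 CPM over 13468 genes was 0.683 ± 0.093 (SD, n = 3 FcMR 12 h libraries) among themselves, 0.739 ± 0.138 to isotype 12 h, 0.993 ± 0.076 to isotype 4 h and 1.28 ± 0.046 to untreated cells. Distances to FcMR 4 h and FcMR 24 h were 0.941 ± 0.042 and 0.869 ± 0.079. Isotype 4 h libraries lay 0.899 ± 0.096 from each other (pairs 0.737 to 1.11), so the distance to that group includes its own wide spread. Replicate 1 was nearest to FcMR 24 h (0.779), ahead of its own group (0.789), and lay 0.893 from FcMR 4 h, 0.898 from isotype 12 h and 0.905 from isotype 4 h. Replicates 2 and 3 lay 1.04 and 1.03 from isotype 4 h and 0.676 and 0.644 from isotype 12 h. After the GC offset the mean distances were 0.58 within the group, 0.695 to isotype 12 h and 0.897 to isotype 4 h. Among isotype 4 h libraries it was then 0.756.

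**Figure D2:**
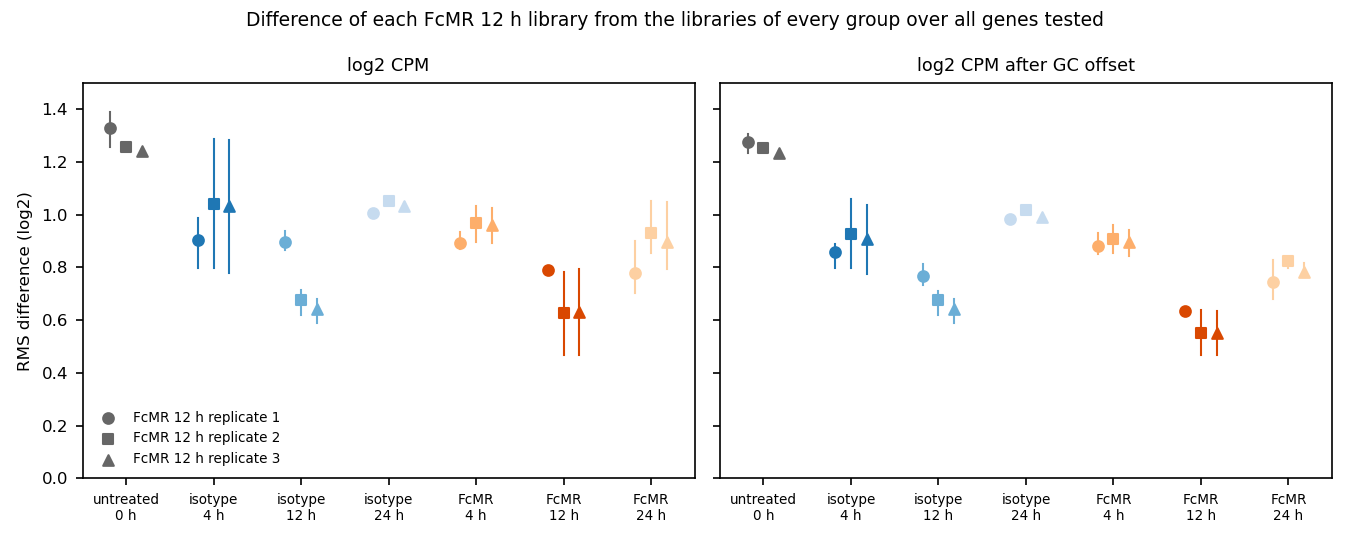
Root mean square difference (log2, vertical axis) between each FcMR 12 h library and the libraries of every group (horizontal axis), before (left) and after (right) a GC offset; markers are means over the libraries of that group, lines the lowest and highest pair. The isotype 12 h group lies lower than isotype 4 h for replicates 2 and 3, and for replicate 1 mainly after the offset.

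Of 13468 genes tested, edgeR's quasi-likelihood test called 4297 (31.9%), a call being a p-value under 0.05 after Benjamini-Hochberg adjustment. Of the called genes 1922 (14.3%) were higher in FcMR 12 h and 2375 (17.6%) lower, and 1400 (10.4%) differed by more than 2-fold, 717 up (5.32%) and 683 down (5.07%). Without an expression filter the split was 2329 higher and 1304 lower. Isotype 12 h against isotype 4 h, the same interval in the control, called 4737 genes (35.2%), of which 2143 (15.9%) were higher and 2594 (19.3%) lower. FcMR 12 h against isotype 12 h, which tests whether the FcMR 12 h cells differ from what time alone did in the control, called 2169 genes (16.1%), of which 1160 (8.61%) were higher and 1009 (7.49%) lower. The first and second of these comparisons share the isotype 4 h libraries, and the others share groups in the same way. With the library-number term 4141 genes (30.7%) were called, and 3698 of the 4297 were among them. The control comparison was less stable to this term, with 2730 genes called (20.3%), and FcMR 12 h against isotype 12 h called 2459 (18.3%). Within the lower numbers (2 isotype 4 h libraries and 1 of FcMR 12 h) and within the higher ones (1 and 2), 4288 of the 4297 had the direction of the fit in both, as a description since the same libraries made the calls. The lists' medians within the lower and the higher numbers were 0.25 and 0.23 for cytokines, -0.53 and -0.76 for chemokines, 0.49 and 0.33 for interferon-stimulated genes, 0.74 and 0.73 for defence effectors, and -1.3 and -1.24 for sterol synthesis. They were -0.01 and -0.34 for NF-kB genes, where 13 of 18 had the direction of the fit in both sets, -0.31 and -0.53 for immediate-early genes, -0.09 and -0.26 for glycolysis (14 of 18), and 0.03 and -0.01 for the lysosome (16 of 22). The remaining lists gave -0.89 and -0.92 for alternative activation, 0.04 and 0.01 for surface receptors, 0.36 and 0.32 for antigen presentation, -0.88 and -0.75 for the cell cycle, 0.42 and 0.32 for ATF4 genes, 0.33 and 0.22 for NRF2 genes, and 0 and 0.03 for the TCA cycle. Without both libraries that stand out of order 7205 of 13797 genes tested were called (52.2%), 4020 higher and 3185 lower, and the control comparison called 7127. With the GC offset 5228 were called (38.8%), 2328 higher and 2900 lower. With the offset and without both libraries 5823 were called (42.2%), 2585 higher and 3238 lower. List counts in these settings stand beside these shares of all genes. Without isotype 4 h replicate 2 the control comparison called 3126 genes.

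**Figure D3:**
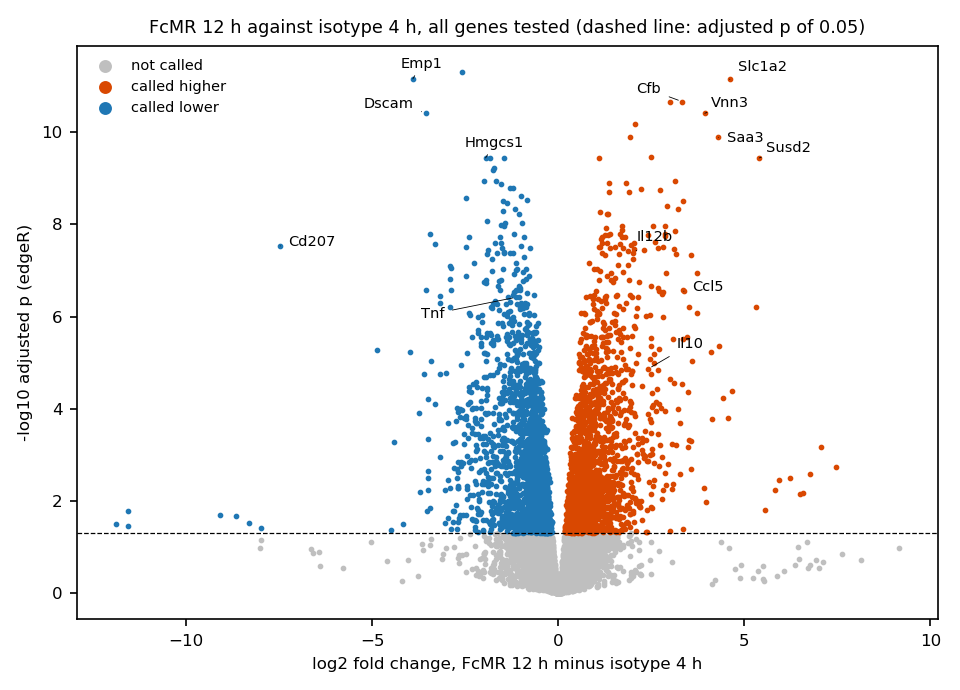
Each point is 1 of 13468 genes: log2 fold change of FcMR 12 h minus isotype 4 h (horizontal axis) against -log10 of the edgeR adjusted p (vertical axis), with genes called higher in orange and lower in blue. Slc1a2 and Emp1 stand near the top on either side, at 4.61 and -3.91.

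As a set, inflammatory cytokine genes were not lower in FcMR 12 h than in isotype 4 h, whereas in isotype 12 h they were. Of 21 cytokine genes 8 were higher and 3 lower in FcMR 12 h than in isotype 4 h, with a median log2 difference of 0.22 against 0.004 over all genes, of which 14.3% were higher and 17.6% lower. From isotype 4 h to isotype 12 h, 15 of the 21 fell and 0 rose (median -1.63), beside 19.3% lower and 15.9% higher of all genes. In FcMR 12 h against isotype 12 h 17 were higher and 0 lower (median 1.7), beside 8.61% and 7.49% of all genes. The list's mean log2 CPM was 4.63 to 4.86 in isotype 4 h, 5.0 to 5.06 in FcMR 12 h, 3.15 to 3.26 in isotype 12 h, 6.93 to 7.08 in FcMR 4 h and 2.72 to 2.85 in untreated cells. The isotype 4 h libraries were thus themselves above the untreated ones, and FcMR 12 h lay close above that level. From FcMR 4 h to FcMR 12 h the list's mean also fell, from a higher start than in the control. Without both libraries out of order, 9 of the 21 were higher and 4 lower, beside 52.2% of all genes called.

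Il12b encodes the p40 subunit that IL-12 and IL-23 share. It measured 290.1, 246 and 247 CPM in isotype 4 h and 1176, 1072 and 884 CPM in FcMR 12 h. The groups did not overlap, and FcMR 12 h was higher by 2.0 ± 0.16 (SE), adjusted p = 4.21e-08. Isotype 12 h, at 82.3, 103 and 89.6 CPM, was lower than isotype 4 h by 1.51 (adjusted p = 1.56e-06). Il12a, the p35 partner that makes IL-12, was at 2.58, 3.07 and 2.78 CPM in isotype 4 h and 16.1, 18.6 and 19.5 in FcMR 12 h, a log2 difference of 2.69 ± 0.2 (SE), adjusted p = 3.31e-08. Il23a, the p19 partner that makes IL-23, went the other way. Its levels were 6.32, 6.13 and 5.45 CPM in isotype 4 h and 0.734, 0.436 and 0.583 in FcMR 12 h, a log2 change of -3.32 ± 0.25 (SE), adjusted p = 2.69e-08, after 74.9, 89 and 86.3 CPM in FcMR 4 h. Both IL-12 subunits were therefore above the early control level at a time when the IL-23 subunit was below it, in every library.

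Il10, an anti-inflammatory cytokine, was like Il12b above isotype 4 h in FcMR 12 h and below it in isotype 12 h. It measured 1.87, 1.62 and 2.32 CPM in isotype 4 h and 12.7, 9.26 and 9.42 in FcMR 12 h (log2 difference 2.41 ± 0.31 (SE), adjusted p = 1.37e-05). In isotype 12 h it stood at 0.505, 0.734 and 0.666. Il1b, the fever-inducing product of inflammasome cleavage, measured 1035, 1108 and 768 CPM in isotype 4 h, 2865, 2256 and 2062 in FcMR 12 h and 146, 158 and 145 in isotype 12 h. Its difference from isotype 4 h was 1.3 ± 0.14 (SE), adjusted p = 2.61e-06, and the libraries did not overlap. FcMR 4 h held 1904, 2479 and 2128 CPM of Il12b, 5596, 6070 and 5638 of Il1b and 11, 13.1 and 14.2 of Il10. Within FcMR, Il12b and Il1b were thus lower at 12 h than at 4 h, and the Il10 libraries overlapped. These cytokines were chosen as the genes whose differences from isotype 4 h were most clearly opposite in FcMR 12 h and isotype 12 h. Slc36a2, an amino acid transporter, was chosen with them but was lower in FcMR 12 h. It measured 2.58, 1.62 and 1.27 CPM in isotype 4 h, 0.147, 0.436 and 0.68 in FcMR 12 h and 6.39, 4.84 and 4.2 in isotype 12 h.

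Il6 and Tnf, the classical products of the early wave, parted. Il6 measured 149, 146 and 102 CPM in isotype 4 h and 254, 202 and 176 in FcMR 12 h, a small rise of 0.67 ± 0.21 (SE) on the log2 scale (adjusted p = 0.0245) with no overlap between the groups. The call was lost without FcMR 12 h replicate 1 (0.55), without isotype 4 h replicate 3 (0.53) and without both (0.37). In isotype 12 h it was down to 12.2, 12.9 and 14 CPM, so that FcMR 12 h exceeded isotype 12 h by 4.01 on the log2 scale (adjusted p = 6.38e-09). Tnf fell from 1135, 862 and 1174 CPM in isotype 4 h to 482, 511 and 462 in FcMR 12 h (-1.12 ± 0.1 (SE), adjusted p = 3.8e-07), but stayed above the 141, 147 and 149 CPM of isotype 12 h. Tnf was thus between the 2 control times, while Il6 was higher than in either. Both were far below FcMR 4 h, which held 1341, 1301 and 1299 CPM of Il6 and 5762, 6087 and 5521 CPM of Tnf. Csf2 and Ifnb1 were not called (adjusted p = 0.0578 and 0.0884), with at most 9 and 7 counts in any of the 6 libraries.

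Promoter sequences are shown for 4 genes named here, to set a known regulatory motif beside 4 different courses. They are RefSeq windows of build GRCm38.p6, from 250 bases before to 50 after the annotated start, 5′ to 3′ on the gene's strand, with the motif in capitals. Il6 (chr5:30012864-30013163, + strand) and Cxcl3 (chr5:90785851-90786150, + strand) each hold 1 match to the NF-kB pattern, GGG and TTTCC with any 2 bases between, starting 44 and 73 bases before the start. Cxcl10 (chr5:92348840-92349139, - strand) and Saa3 (chr7:46715627-46715926, - strand) each hold 1 match to the interferon-response pattern, GAAA repeated with any 2 bases between, starting 213 and 125 bases before it.
Il6: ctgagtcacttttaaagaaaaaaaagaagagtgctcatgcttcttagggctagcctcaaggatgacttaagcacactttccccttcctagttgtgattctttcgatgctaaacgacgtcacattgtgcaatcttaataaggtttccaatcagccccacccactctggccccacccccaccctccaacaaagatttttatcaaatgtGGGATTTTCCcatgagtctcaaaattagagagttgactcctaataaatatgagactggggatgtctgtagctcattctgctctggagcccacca
Cxcl3: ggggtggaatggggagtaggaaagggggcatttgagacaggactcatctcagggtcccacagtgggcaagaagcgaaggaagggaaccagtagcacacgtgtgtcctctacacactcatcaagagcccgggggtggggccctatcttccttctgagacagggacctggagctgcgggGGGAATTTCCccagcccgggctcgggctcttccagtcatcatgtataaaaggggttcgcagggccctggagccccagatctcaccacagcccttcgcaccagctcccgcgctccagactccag
Cxcl10: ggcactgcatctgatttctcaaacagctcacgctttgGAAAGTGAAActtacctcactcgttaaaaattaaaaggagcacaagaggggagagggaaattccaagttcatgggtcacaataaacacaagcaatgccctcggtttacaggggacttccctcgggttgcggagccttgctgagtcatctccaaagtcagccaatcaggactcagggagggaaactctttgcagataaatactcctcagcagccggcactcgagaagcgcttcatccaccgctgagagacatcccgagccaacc
Saa3: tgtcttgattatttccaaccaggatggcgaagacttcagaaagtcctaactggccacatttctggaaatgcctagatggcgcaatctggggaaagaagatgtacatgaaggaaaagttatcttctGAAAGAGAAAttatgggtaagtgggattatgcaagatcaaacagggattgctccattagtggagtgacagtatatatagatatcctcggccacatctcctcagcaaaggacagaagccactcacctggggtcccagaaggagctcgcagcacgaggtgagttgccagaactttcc
Among 9819 tested genes with such a window, 170 (1.73%) held the NF-kB pattern on either strand and 341 (3.47%) the interferon pattern, and matches of the 2 patterns overlapped in 2 windows. The NF-kB pattern occurred in 4 of 11 chemokine windows (Ccl9, Cxcl1, Cxcl2 and Cxcl3), 2 of 14 cytokine windows (Il6 and Csf1) and 4 of 15 windows of NF-kB genes, and the interferon pattern in 12 of 21 windows of interferon-stimulated genes. A match describes letters in the sequence and not a bound site. Of the 2 genes shown with the interferon pattern, Cxcl10 fell and Saa3 rose, and both genes shown with the NF-kB pattern rose.

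Chemokine genes, which draw leukocytes into tissue, split by member. Of 19 tested 10 were lower and 5 higher in FcMR 12 h (median log2 difference -0.67), beside 17.6% and 14.3% of all genes. In isotype 12 h 12 were lower and 2 higher (median -1.25), beside 19.3% and 15.9%, and against isotype 12 h 13 were higher and 0 lower, beside 8.61% and 7.49%. Ccl5, which attracts T cells and monocytes, measured 224, 152 and 413 CPM in isotype 4 h and 1685, 3301 and 3203 in FcMR 12 h, a rise of 3.37 ± 0.31 (SE), adjusted p = 2.81e-07. Cxcl5 and Cxcl3, which attract neutrophils through CXCR2, rose as well. Cxcl5 went from 5.17, 4.69 and 7.65 to 42, 51.5 and 57.2 CPM (3.08, adjusted p = 3e-06) and Cxcl3 from 558, 425 and 768 to 1416, 1695 and 1696 CPM (1.46, adjusted p = 0.000189), without overlap in either.

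Cxcl10, Ccl4 and Ccl7 led the falling members. Cxcl10, an interferon-induced ligand of CXCR3, measured 494, 411 and 600.5 CPM in isotype 4 h and 180.4, 171 and 134 in FcMR 12 h (-1.63 ± 0.15 (SE), adjusted p = 2.21e-07). Ccl4 fell from 253, 171 and 305 to 84.8, 93.2 and 69.8 CPM (-1.56, adjusted p = 1.06e-05). Like Tnf, both were between the isotype times, since isotype 12 h held 46.8, 43.4 and 39.2 CPM of Cxcl10 and 51.9, 46.9 and 37 of Ccl4. Ccl7, a monocyte attractant, fell from 17.5, 15.2 and 12.4 to 4.77, 4.19 and 3.01 CPM (-1.92, adjusted p = 4.02e-05) and did not differ detectably from isotype 12 h (7.18, 5.43 and 3.19 CPM, log2 difference -0.38, 95% interval -0.95 to 0.2).

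**Figure D4:**
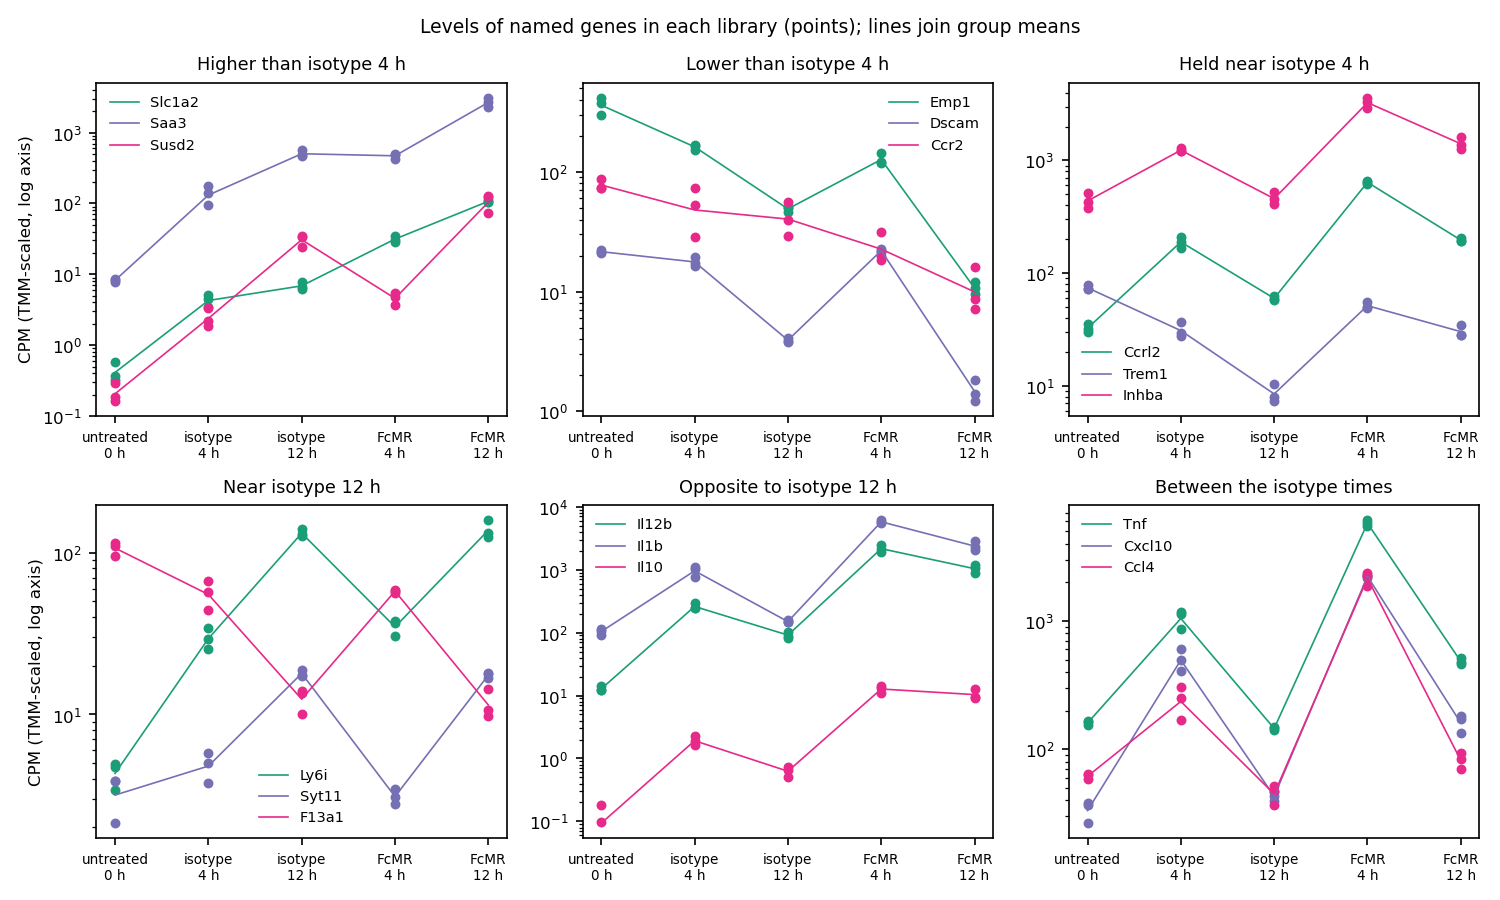
CPM on a log axis (TMM-scaled) of 18 named genes in each library of 5 groups, 3 libraries a group; points are libraries and lines join group means, and a library at 0 is not drawn. Il12b, Il1b and Il10 are higher in FcMR 12 h than in isotype 4 h and lower in isotype 12 h, while Tnf, Cxcl10 and Ccl4 lie between the 2 isotype times.

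Of the NF-kB subunits and their feedback inhibitors, 6 of 18 were lower and 1 higher than in isotype 4 h (median log2 difference -0.06), beside 17.6% and 14.3% of all genes. Against isotype 12 h 9 were higher and 0 lower, beside 8.61% and 7.49%. Nfkbiz, an atypical inhibitor that helps switch on secondary genes, fell from 138, 101 and 149 to 46.7, 48.8 and 40.3 CPM (-1.52 ± 0.12 (SE), adjusted p = 3.31e-08), and isotype 12 h held 17.8, 18.6 and 17.4. Rel, which encodes the subunit c-Rel, fell from 287, 313 and 227 to 176, 132 and 117 CPM (-0.96, adjusted p = 0.000336), as it did in isotype 12 h (-0.99). Tnip3, an inhibitor of the pathway, fell by 1.32 on the log2 scale and Traf1, an adaptor of TNF receptors, rose by 0.62 (adjusted p = 2.24e-05 and 0.00733). The list's level overlapped between the groups, at 6.88 to 7.85 in isotype 4 h and 7.01 to 7.5 in FcMR 12 h as mean log2 CPM. Without both libraries out of order 9 of the 18 were higher and 5 lower, with a GC offset 1 and 9. With the offset and without both libraries 3 were higher and 7 lower. In these settings 52.2%, 38.8% and 42.2% of all genes were called.

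Of 20 immediate-early genes, 8 were below isotype 4 h, 1 was above and 11 were not called (17.6% lower and 14.3% higher of all genes). Myc, a growth regulator, measured 11.3, 10.6 and 23.1 CPM in isotype 4 h, 2.72, 3.93 and 4.27 in FcMR 12 h and 12.7, 13.1 and 11.4 in isotype 12 h. It was below both controls in every library, with log2 differences of -2.05 ± 0.29 (SE) (adjusted p = 3.48e-05) from isotype 4 h and -1.75 (adjusted p = 0.000218) from isotype 12 h. Egr3 fell from 3.45, 8.66 and 5.45 to 0.66, 1.48 and 0.583 CPM (-2.73, adjusted p = 9.47e-05). Fosb, a partner in AP-1, was near the floor in both groups. It had 0.575, 0.18 and 1.16 CPM in isotype 4 h and at most 3 counts in each FcMR 12 h library. The isotype 4 h mean was 3.14-fold above that floor, which does not hold for its replicate 2. The call was lost without isotype 4 h replicate 3. Dusp1, a phosphatase that ends kinase signals, rose by 0.49 (adjusted p = 0.0034), a call lost with the GC offset (0.24). Without both libraries out of order 8 of the 20 were higher and 7 lower. With the GC offset 0 were higher and 13 lower, and with the offset and without both libraries 2 and 10. Of all genes 52.2%, 38.8% and 42.2% were called in these settings.

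Interferon-stimulated genes limit virus replication. Of 30 members 16 rose and 2 fell against isotype 4 h (median log2 difference 0.42), beside 14.3% and 17.6% of all genes. Over time in the control 7 rose and 14 fell (median -0.21), beside 15.9% and 19.3%. Against isotype 12 h, 22 were higher and 0 lower, beside 8.61% and 7.49%. Irf7, the factor that amplifies interferon production, measured 108, 86.8 and 203 CPM in isotype 4 h and 488, 886 and 871 in FcMR 12 h (2.49 ± 0.28 (SE), adjusted p = 2.92e-06). Ifi44 rose from 27.6, 33.7 and 23.5 to 188, 127 and 113 CPM (2.34, adjusted p = 9.9e-07), and Isg20, a nuclease, from 14.1, 6.31 and 23.8 to 36.9, 68.5 and 63 (1.9, adjusted p = 0.000225). Each was higher in all FcMR 12 h libraries than in any isotype 4 h library. In isotype 12 h Irf7, Ifi44 and Isg20 rose as well, by 1.86, 1.38 and 1.08. Ifi44 was higher in FcMR 12 h than in isotype 12 h (0.96, adjusted p = 0.00509). Irf7 and Isg20 were not called there (0.63 and 0.82, adjusted p = 0.123 and 0.0797). Mx2, annotated as a polymorphic pseudogene in the mouse, and Cmpk2, a nucleotide kinase, were the 2 that fell. Mx2 fell to 44, 39.5 and 40.1 from 68.8, 68.5 and 64.3 CPM, and Cmpk2 to 366, 309 and 263 from 451, 463 and 468 CPM. Without both libraries out of order 15 of the 30 were higher and 5 lower, beside 52.2% of all genes called.

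Defence effectors and inflammatory enzymes had the highest share of rising members among the 16 lists. Of 25, 18 were higher and 1 lower in FcMR 12 h (median log2 difference 0.77), beside 14.3% and 17.6% of all genes. Without both libraries out of order 19 were higher and 2 lower, beside 52.2% of all genes called. In isotype 12 h 9 were higher and 8 lower (median 0.16), beside 15.9% and 19.3%, and against isotype 12 h 18 were higher and 1 lower, beside 8.61% and 7.49%. Saa3, an acute-phase protein of activated macrophages (chromosome 7, 46711998 to 46715700, - strand), measured 138, 93.8 and 173 CPM in isotype 4 h, 461, 485 and 565 in isotype 12 h and 2311, 2664 and 3055 in FcMR 12 h. Its rise of 4.3 ± 0.2 (SE) (adjusted p = 1.29e-10) was larger than that in the control by 2.41 on the log2 scale (adjusted p = 7.57e-08). Cfb, complement factor B, rose from 309, 279 and 324 to 3113, 2915 and 3163 CPM (3.33, adjusted p = 2.16e-11), with 1306, 1232 and 1460 in isotype 12 h. Ptges, which makes prostaglandin E, rose from 16.4, 11.4 and 23.1 to 143, 178 and 206 CPM (3.36, adjusted p = 3.05e-09). Thbs1, a matrix glycoprotein, was the member that fell, from 615, 648 and 642 to 216, 221 and 216 CPM (-1.55, adjusted p = 1.02e-08), as it did in isotype 12 h (230.5, 177 and 186 CPM).

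**Figure D5:**
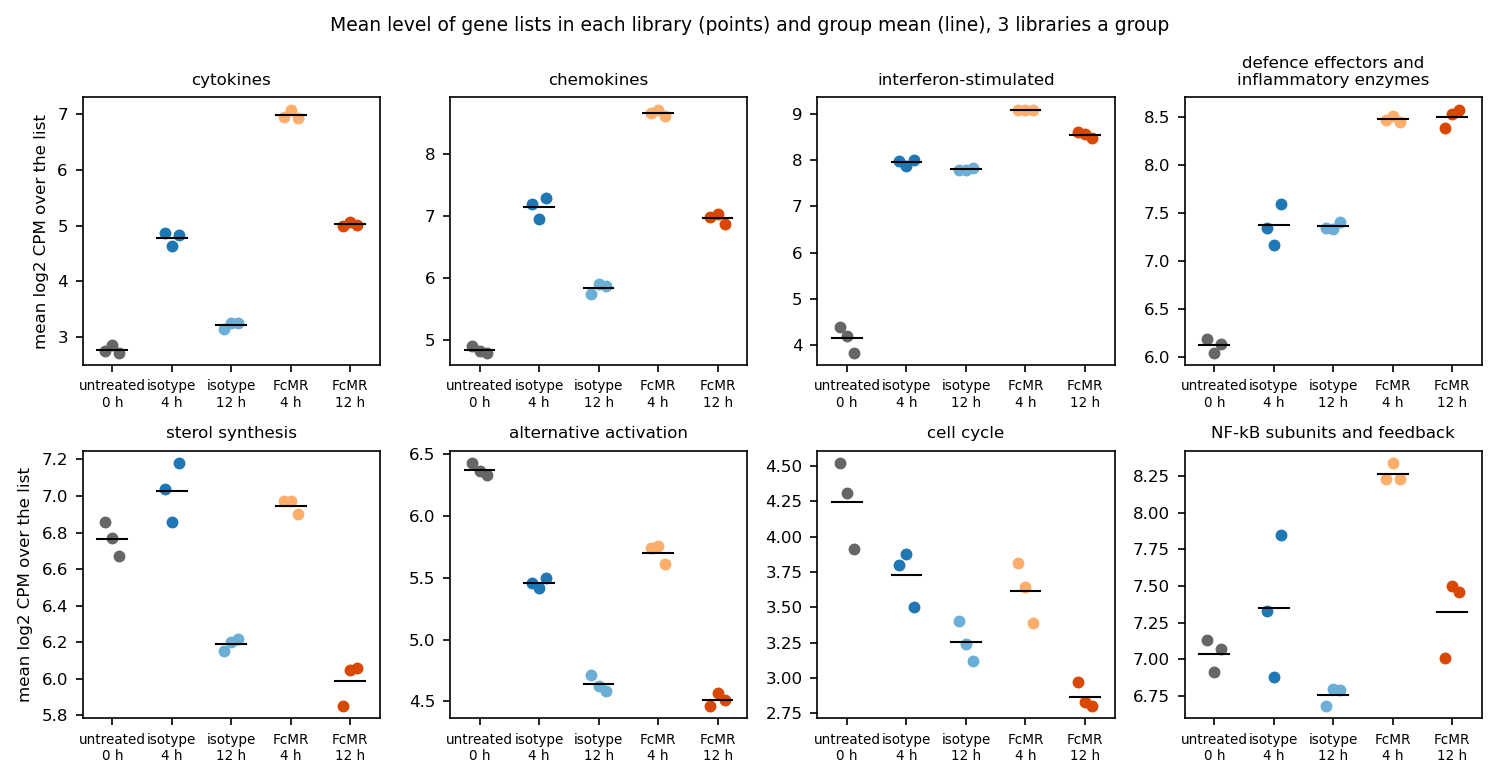
Mean log2 CPM over the members of 8 gene lists (vertical axes) in each library (points) of 5 groups, with the group mean as a line. Cytokines in FcMR 12 h (5.0 to 5.06) lie just above isotype 4 h (4.63 to 4.86), defence effectors (8.39 to 8.58) lie above both isotype groups, and sterol synthesis (5.85 to 6.06) lies below isotype 4 h (6.86 to 7.18).

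The 12 protein-coding genes with the highest fold and no overlap were Susd2, Antxr1, Slc1a2, Gpr31b, Saa3, Shisa3, Vnn3, Rnf225, Dll4, Clic5, Thbs4 and Trim43b, and their size is a description since it chose them. Slc1a2, a glutamate transporter best known from astrocytes (chromosome 2, 102658659 to 102790784, + strand), measured 4.45, 3.43 and 5.1 CPM in isotype 4 h and 106, 105 and 111 in FcMR 12 h. It stood at 7.8, 6.6 and 6.3 in isotype 12 h and 28.9, 35.1 and 30.6 in FcMR 4 h, so that it was higher under FcMR at both times. Its log2 difference from isotype 4 h was 4.61 ± 0.17 (SE), adjusted p = 7.05e-12. The span of Slc1a2 overlaps that of another annotated gene, on the same or the other strand. The same holds for Il1b, Cxcl10, Irf7, Cfb, Ptges, Antxr1, Dll4, Dscam, Fat3, Fst, Trem1, Inhba, F13a1, Hmgcs1 and further genes named here. Whether transcripts of such pairs share sequence, so that reads could be assigned to either gene, was not examined. Susd2, a membrane protein (chromosome 10, 75636706 to 75644008, - strand), followed another course: 1.87, 2.17 and 3.36 CPM in isotype 4 h, 24.6, 34.6 and 34 in isotype 12 h and 73.1, 122 and 126 in FcMR 12 h, with 4.75, 5.42 and 3.73 in FcMR 4 h. Susd2 thus also rose with time in the control, by 3.62, and exceeded isotype 12 h by 1.79 (adjusted p = 8.77e-06).

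Vnn3, of the vanin family of pantetheine-cleaving enzymes, rose from 2.87, 2.71 and 3.82 to 47.3, 51.2 and 48.2 CPM (3.94 ± 0.17 (SE), adjusted p = 3.85e-11). Dll4, a ligand of Notch receptors, rose from 1.72, 1.44 and 3.36 to 18.4, 33.9 and 30.1 CPM (3.6, adjusted p = 9e-06) and held 1.18, 3.81 and 2.06 CPM in isotype 12 h. Clic5, of the chloride intracellular channel family, rose from 1.87, 2.35 and 1.39 to 24.9, 22.1 and 18.4 CPM (3.57, adjusted p = 4.52e-08). For Shisa3, Rnf225 and Dll4 the isotype 12 h level did not differ from isotype 4 h past the threshold (-0.077, 0.084 and -0.07). Antxr1, a cell-surface receptor for collagen and anthrax toxin, had at most 3 counts in each isotype 4 h library and 9.25, 8.21 and 6.12 CPM in FcMR 12 h, at least 18.1-fold higher. Gpr31b, Thbs4 and Trim43b were at low levels, with log2 differences of 4.31, 3.51 and 3.49.

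At the other end stood Cd207, Asprv1, Emp1, Fosb, Dscam, Fat3, Stfa2, Asgr2, Slc9a9, Il23a, Cd209a and Il18rap. Cd207 encodes langerin, a C-type lectin of Langerhans cells and some dendritic cells. It measured 9.62, 10.3 and 8.11 CPM in isotype 4 h and at most 3 counts in each FcMR 12 h library, at least 46.0-fold lower, and was already down to 0.393, 0.44 and 0.212 CPM in isotype 12 h. The summed dendritic cell markers were not lower, at 1435 to 1511 CPM in isotype 4 h and 1623 to 1860 in FcMR 12 h. Such a sum follows its most abundant members and can hide others that fell. It therefore cannot decide whether dendritic cells were fewer. Emp1, a membrane protein of the epithelial membrane protein family (chromosome 6, 135362545 to 135383173, + strand), measured 163, 169 and 154 CPM in isotype 4 h, 50.9, 46.6 and 49.8 in isotype 12 h and 12, 9.52 and 10.7 in FcMR 12 h. Its log2 difference was -3.91 ± 0.14 (SE) (adjusted p = 6.92e-12) from isotype 4 h and -2.19 (adjusted p = 6.38e-09) from isotype 12 h, so that the fall was larger than in the control.

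Dscam, an immunoglobulin-family adhesion molecule, fell from 19.4, 17.5 and 16.3 to 1.83, 1.22 and 1.41 CPM (-3.56, adjusted p = 3.73e-11), also beyond isotype 12 h (3.81, 4.11 and 3.88 CPM). Fat3, an atypical cadherin, was low in isotype 4 h, at 1.72, 1.8 and 1.39 CPM, and held 1.96, 1.91 and 1.5 in isotype 12 h, but had at most 3 counts in each FcMR 12 h library, at least 8.07-fold lower than in isotype 4 h. Asgr2, a subunit of the asialoglycoprotein receptor, fell from 7.04, 8.3 and 8.92 to 0.514, 1.05 and 0.68 CPM (-3.46, adjusted p = 1.62e-08). Il18rap, the accessory chain of the IL-18 receptor, fell from 24, 27.1 and 13.1 to 3.38, 2.01 and 1.65 CPM (-3.19, adjusted p = 3.6e-07). The other 11 of these 12 genes also fell in isotype 12 h, and Fat3 did not pass the threshold there (log2 0.11, adjusted p = 0.98). Stfa2 belongs to a family of close copies between which reads can move, so its value of -3.5 is uncertain. Asprv1 and Slc9a9, an aspartic protease and an endosomal sodium-proton exchanger, had log2 differences of -4.88 and -3.43.

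Surface receptors of myeloid cells went both ways, with 7 of 26 higher and 7 lower, beside 14.3% and 17.6% of all genes. The CC chemokine receptors Ccr1 and Ccr2 were lower, and Ccr7, the receptor that leads dendritic cells to lymph nodes, was higher by 1.08 (named after its value was seen). Ccr2, the receptor of CCL2 and CCL7, measured 53, 73.1 and 28.7 CPM in isotype 4 h, 16.1, 8.64 and 7.09 in FcMR 12 h and 56.5, 39.9 and 29.1 in isotype 12 h. It was below each control group without overlap, with log2 differences of -2.28 ± 0.35 (SE) (adjusted p = 9.5e-05) from isotype 4 h and -1.98 (adjusted p = 0.000508) from isotype 12 h. Ccr1 fell by 1.07 (adjusted p = 0.000507). Adgre1, which encodes the macrophage marker F4/80, rose from 289, 322 and 231 to 1127, 871 and 907 CPM (1.79, adjusted p = 1.86e-08). Fcgr2b, the inhibitory receptor for IgG, and Csf3r, the G-CSF receptor, rose by 1.3 and 1.29 (adjusted p = 2.51e-08 and 3.6e-07), and both exceeded isotype 12 h as well (0.91 and 0.86).

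In a set of genes FcMR 12 h stood at the isotype 4 h level, while isotype 12 h differed from it. They were chosen for that pattern, a 95% interval within 1.5-fold of isotype 4 h and calls in both other comparisons, so the values describe them and test nothing further. Ccrl2, an atypical receptor that binds chemerin, measured 190.3, 168 and 210.5 CPM in isotype 4 h, 191, 204 and 194 in FcMR 12 h and 57.1, 62.9 and 59.2 in isotype 12 h. Inhba, the subunit of activin A, measured 1204, 1211 and 1283, 1607, 1373 and 1259 and 409, 452 and 520.2 CPM, and Fst, the activin antagonist follistatin, 10.6, 10.5 and 11.1, 9.1, 8.29 and 8.69 and 1.96, 1.76 and 2.21. Trem1, a receptor that amplifies inflammatory signals, measured 29.3, 36.4 and 27.6, 34.9, 28.3 and 28 and 10.3, 7.33 and 8.01 CPM. In each of these, isotype 12 h was lower than both other groups without overlap. Gfi1, a transcriptional repressor, and Btla, an inhibitory receptor, had the same form, with log2 differences from isotype 4 h of 0.016 (95% interval -0.48 to 0.52) and 0.00086 (-0.53 to 0.53). All of these were higher in FcMR 4 h than in FcMR 12 h, so the level was not kept between these times. FcMR 4 h held 647, 659 and 613 CPM of Ccrl2 and 3313, 2924 and 3571 of Inhba. For Fst it held 37.5, 41.6 and 43.2 CPM, and for Trem1 49, 55.7 and 49.8.

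Ksr2 had the reverse form, with isotype 12 h above both isotype 4 h and FcMR 12 h. This scaffold of the RAF and MEK kinases measured 2.73, 3.25 and 3.24 CPM in isotype 4 h, 2.86, 2.97 and 2.77 in FcMR 12 h and 13.6, 12.6 and 11.7 in isotype 12 h. FcMR 12 h lay below isotype 12 h by 2.14 on the log2 scale, and FcMR 4 h was lower still, at 2.34, 2.41 and 1.12 CPM.

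Other genes moved as in the control. Sterol synthesis was the clearest list: 17 of 22 genes were lower in FcMR 12 h than in isotype 4 h and 0 higher (median log2 difference -1.27), beside 17.6% and 14.3% of all genes. The control at 12 h had 15 lower and 0 higher (median -1.22), beside 19.3% and 15.9%, and against isotype 12 h 5 were lower and 0 higher (median -0.20), beside 7.49% and 8.61%. Without both libraries out of order 15 were lower and 2 higher, beside 52.2% of all genes called. Hmgcs1, which makes HMG-CoA (chromosome 13, 119690379 to 119708260, + strand), measured 716, 788 and 679 CPM in isotype 4 h, 208, 177 and 178 in FcMR 12 h and 239, 223 and 228 in isotype 12 h. It fell by 1.96 on the log2 scale (SE 0.1, adjusted p = 3.59e-10) and was slightly below isotype 12 h (-0.3, adjusted p = 0.0464). Hsd17b7 and Sc5d, late enzymes of the pathway, fell by 1.83 and 1.75 (adjusted p = 3.59e-10 and 6.54e-10). The sterol-response pattern, ATCAC and CCAC with any 1 base between, on either strand, occurred in 0 of 16 sterol gene windows and in 12 of 9819 (0.122%), which says only that these letters are not in those windows.

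Among single genes with the control's course, Ly6i measured 25.6, 34.3 and 29.2 CPM in isotype 4 h, 159, 125 and 132 in FcMR 12 h and 140.3, 126 and 131 in isotype 12 h. Syt11, a synaptotagmin, measured 5.03, 3.79 and 5.79, 16.8, 18 and 17.8 and 17.6, 18.9 and 17.3 CPM. F13a1, the A subunit of coagulation factor XIII and a gene of alternative activation, fell from 57.3, 66.9 and 44 to 14.4, 10.7 and 9.76 CPM, beside 13.9, 13.6 and 10.1 in isotype 12 h. In all of these the FcMR 12 h and isotype 12 h libraries overlapped and lay clear of isotype 4 h. Ms4a6b and Mill2 rose in the same way by 1.86 and 1.75, and Cyp4a12a fell by 2.88, though its family, like that of Ly6i, holds close copies. Ngp, a neutrophil granule gene, fell from 149, 180.4 and 142 to 54, 35.5 and 35.2 CPM together with the neutrophil marker sum given above, and the part of neutrophil RNA in the fall of any other gene was not tested.

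Genes of alternative activation, the program that IL-4 drives, were lower in 13 of 17 tested and higher in 1 (median -0.95), beside 17.6% and 14.3% of all genes. Among the same 17 in isotype 12 h 10 were lower and 2 higher (median -0.89), beside 19.3% and 15.9%. Clec10a, a C-type lectin, fell from 10.1, 8.3 and 9.62 to 2.06, 1.14 and 2.09 CPM (-2.37 ± 0.24 (SE), adjusted p = 9.37e-07). Cd209a, a mouse homologue of DC-SIGN, was at most 1.15 CPM in isotype 4 h and at least 4.59-fold lower in FcMR 12 h. Socs1, a feedback inhibitor of cytokine receptors, was the member that rose (1.66, adjusted p = 0.0211), but its libraries overlapped, at 6.17, 3.79 and 21.3 against 12.2, 45 and 44.5 CPM. The call for Socs1 was lost without any 1 of FcMR 12 h replicates 2 and 3 or isotype 4 h replicates 1 and 2 (log2 1.35 to 1.46).

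Cell cycle genes were lower in 19 of 30 and higher in 3 (median -0.84), beside 17.6% and 14.3% of all genes. The control at 12 h had 12 lower and 5 higher (median -0.46), beside 19.3% and 15.9%. Ccnb2, a mitotic cyclin, fell from 7.18, 9.2 and 5.21 to 1.54, 1.75 and 0.583 CPM (-2.52 ± 0.41 (SE), adjusted p = 0.000159), and Kif11 and Bub1, which act at the spindle and its checkpoint, by 2.32 and 2.23 (adjusted p = 0.000329 and 0.000185). In isotype 12 h Ccnb2, Kif11 and Bub1 fell as well, by 1.86, 1.94 and 1.47, and FcMR 12 h was not called against it (-0.66, -0.37 and -0.76). Tyms, which makes thymidylate for DNA synthesis, rose instead, from 12.2, 9.92 and 11.5 to 20.6, 23.9 and 22.8 CPM (1.0, adjusted p = 0.000449), and was above isotype 12 h as well (1.3, adjusted p = 4.61e-05). Ccne1 and Bub1b were the other members that rose (0.75 and 0.57, adjusted p = 0.00482 and 0.0276), as they did in isotype 12 h (0.67 and 0.56). The call for Bub1b was lost without FcMR 12 h replicate 1 or isotype 4 h replicate 3 (0.45 each).

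The remaining lists had smaller medians. Antigen presentation genes were higher in 8 of 20 and lower in 3 (median 0.34), beside 14.3% and 17.6% of all genes, and with the GC offset in 12 and 6. The immunoproteasome subunits Psmb8 and Psmb9 rose by 1.33 and 1.02 (adjusted p = 0.000299 and 0.00217), and Icosl and Cd83, both of costimulation, fell by 0.85 and 0.78 (adjusted p = 1.3e-06 and 0.00045). Psmb8 and Psmb9 rose in isotype 12 h as well, by 1.03 and 0.86, and were not called against it (0.3 and 0.16). Icosl and Cd83 fell further in isotype 12 h, by 1.93 and 1.32. Genes of the ATF4 and amino acid response were higher in 9 of 21 and lower in 0 (median 0.55), beside the same shares of all genes, with Slc1a2 first, then Phgdh, which opens serine synthesis (1.19, adjusted p = 0.00631), and Ddit3, a stress factor (1.17, adjusted p = 0.00375). In isotype 12 h 6 of these were higher and 2 lower, and with the GC offset 8 were higher and 2 lower in FcMR 12 h (median 0.19). Ddit3 rose by 1.66 in isotype 12 h, and neither Phgdh nor Ddit3 was called against isotype 12 h (0.76 and -0.49). NRF2 and haem genes were higher in 7 of 20 and lower in 1 (median 0.39), and with the GC offset in 10 and 2. With that offset 38.8% of all genes were called. Hmox1, which breaks down haem, rose from 909.7, 687 and 1271 to 1640, 2324 and 2249 CPM (1.11, adjusted p = 0.000138), and Nfe2l2, the gene of NRF2 itself, fell by 0.68 (adjusted p = 5.54e-05). Hmox1 exceeded isotype 12 h by 0.65 (adjusted p = 0.0161), while Nfe2l2 fell in isotype 12 h as well, by 0.62.

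Glycolysis genes were higher in 3 of 18 and lower in 3, beside 14.3% and 17.6% of all genes. Pfkfb3, which makes an activator of glycolysis, rose from 219, 208 and 208 to 493, 477 and 459 CPM (1.17, adjusted p = 4.21e-08), and Hk3 rose by 1.14 (adjusted p = 0.00306). Both rose in isotype 12 h as well, by 0.93 and 1.3, and neither was called against it (0.24 and -0.16). Pdk1, which restrains pyruvate dehydrogenase, fell from 29, 34.3 and 23.8 to 9.84, 12.1 and 13.3 CPM (-1.3, adjusted p = 4.05e-06), and was below isotype 12 h too (-0.6, adjusted p = 0.00786). Without both libraries out of order 8 of the 18 glycolysis genes were higher and 3 lower, beside 52.2% of all genes called. With the GC offset 2 were higher and 8 lower (38.8% of all genes called). With the offset and without both libraries it was 3 and 9 (42.2%). TCA cycle genes were higher in 4 of 20 and lower in 0 (median 0.04), among them Sdhb and Mdh2 (0.76 and 0.71, adjusted p = 0.00385 and 0.00829). Sdhb and Mdh2 rose in isotype 12 h too, by 1.03 and 0.57, and were not called against it (-0.27 and 0.14). Lysosomal genes were higher in 7 of 22 and lower in 2 (median 0.06), and with the GC offset in 6 and 5. Ctsz, a cathepsin, rose by 0.96, and Lipa, the acid lipase, fell by 0.62 to a level also below isotype 12 h (-0.51, adjusted p = 0.000987). Ctsz rose in isotype 12 h as well, by 0.89, and was not called against it (0.07).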

How the data were processed

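RNA of 21 libraries was sequenced, and the authors deposited estimated counts per gene from kallisto 0.44.0 on GRCm38 (mm10), per the submitters' processing notes, which also name CASAVA 1.8.2 and DESeq2. The design had assumed plain counts, and values were rounded to whole numbers. A second deposited table holds a normalised signal per gene, read here only as an alternative. Both hold 23250 genes, and 23206 identifiers matched a symbol of GENCODE M21. Genes were filtered with filterByExpr (minimum 10), leaving 13468. edgeR 4.0.16 was fitted to all 21 libraries with TMM scaling, 1 coefficient per group and quasi-likelihood tests, with Benjamini-Hochberg adjustment over all genes. On simulated data it recovered 69% of 2-fold and 97% of 4-fold changes of FcMR 12 h against isotype 4 h among 13094 genes, 200 of them changed. It made 9 false calls. The simulated libraries had no GC tilt or library-number effect, and only genes above a minimum expected count were changed. These rates therefore do not cover the tilt seen in the real libraries. Folds against a group with at most 3 counts in every library are bounds against that floor per library.

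The members, gene lists and rules were chosen with earlier results of these data known. Genes named are the 12 highest and 12 lowest called protein-coding genes by fold whose libraries did not overlap and whose mean log2 CPM reached 1, 8 held at the isotype 4 h level, 8 with the control's course, 4 with opposite changes, up to 3 at either end of each list, and Il6, Tnf, Il1b, Il10, Mrc1 and Ptprc, of which some are not reported here. Genes held at the isotype 4 h level, or with the control's course, had a 95% interval within 1.5-fold. FcMR 4 h played no part in either choice. Alternatives were RLE scaling, other filters, DESeq2 1.42.0, limma 3.58.1 (voom, and trend on the deposited signal as log2 of the value + 1), the 2 groups alone, a replicate block, a GC offset, leaving out libraries, and, chosen after seeing the data, a library-number term and its combinations. Ccl8, Mrc1, Cd163, Folr2, Chac1 and Aldoa (2 identifiers) were not tested. No 2 replicates were alike within counting error (chi-square of their counts over its degrees of freedom 5.55 or more).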

Additional observations from a re-analysis of the deposited data

How the results depend on the processing

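Of 4297 genes called between FcMR 12 h and isotype 4 h, 96.3% were also called with RLE scaling, 95.1% with DESeq2, 93.6% with limma voom, 88.4% with the GC offset and 36.9% from the 2 groups alone. The count was 1590 from the 2 groups alone and 7205 without both libraries out of title order, and leaving out 1 library gave 2987 to 6117. Without an expression filter it was 3633. The control comparison gave 2689 from the 2 groups alone, 7127 without both libraries, and 3126 (without isotype 4 h replicate 2) to 6739 when 1 library was left out. FcMR 12 h against isotype 12 h gave 3348 with the GC offset and 3524 with the GC offset and the replicate block. The cause of these shifts was not tested. Mean distances moved by more than 1 SD with the GC offset, to 0.897 (isotype 4 h), 0.997 (isotype 24 h), 0.896 (FcMR 4 h), 0.58 (FcMR 12 h) and 0.784 (FcMR 24 h), and without a filter, to 1.16 (untreated) and 0.995 (isotype 24 h).

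Over the named genes 2411 alternative values kept direction and call, 99 gained a call, 60 lost it and 2 turned direction. From the 2 groups alone, calls for Il6, Slc36a2, Cmpk2, Traf1, Dusp1, Ccr1, Psmb9, Hk3, Sdhb, Mdh2, Ddit3, Ctsz and Socs1 were among those lost. Hk1, at 0.68, was -0.05 (adjusted p = 0.741) with the GC offset without both libraries, and Atf5, at -0.16, was 0.61 (adjusted p = 0.0153) without both. Whether replicate numbers pair the samples is not stated. The correlations of same-numbered FcMR 12 h and isotype 4 h libraries were 0.254, -0.428 and 0.516. FcMR 12 h replicate 1 gave 0.578 with isotype 4 h replicate 2 and -0.691 with replicate 3. These values followed the GC tilt of the libraries, so they cannot decide whether samples are paired. With the replicate block the counts were 4473, 5027 and 2290 for the comparisons in the order of the report. Library totals limit low genes: 3 counts stand for 0.327 to 0.542 CPM in isotype 4 h and 0.138 to 0.252 in FcMR 12 h.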
